A study of Mus musculus with 8 samples.

Results

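The genes described here are 42 cell cycle and proliferation genes, chosen by name for their known roles in copying and dividing the genome. All 42 were found among the 54532 genes listed for the PTS + RS and RS groups and among the 28229 genes listed for the RGFP109 and NaCl groups. The study asked how photothrombotic stroke (PTS), a light-induced cortical infarct, changes the susceptibility of mice to restraint stress (RS). RNA-seq was performed on 8 libraries of C57BL/6 brain tissue from Day 21. There were 2 libraries of PTS + RS cortex and 2 of RS cortex. Another 2 libraries came from PTS + RS mice given RGFP109, a histone deacetylase inhibitor that the labels name an HDAC3 inhibitor, at 60 mg/kg under the skin daily for 2 weeks. The last 2 libraries are labelled NaCl treatment of PTS + RS mice. All 8 libraries carry restraint stress, and the 6 libraries other than RS carry stroke as well. No unstressed or sham library was analysed here, and whether a library was made from 1 mouse or from several is stated nowhere. The p-values therefore measure only the spread between these libraries, which may be technical. In the RGFP109 and NaCl groups, replicate 1 is labelled cortex and replicate 2 amygdala. The spread within each of these groups also holds any difference between the labels.

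A dividing cell commits in G1 through cyclin D and cyclin E kinases, copies its DNA in S phase with the MCM helicase and the PCNA clamp, and then enters mitosis under cyclin B and Cdk1. Mitotic genes are transcribed late in the cycle by MYB and FOXM1, and the anaphase-promoting complex (APC/C) ends mitosis by marking cyclin B and securin for destruction. Most neurons have left the cycle for good. In the adult brain, dividing cells are mainly microglia responding to injury, oligodendrocyte precursors, reactive astrocytes and the neural stem cells of the subventricular zone.

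Promoters of genes that peak in mitosis often hold a cell cycle homology region (CHR) next to CCAAT boxes, and the sequences below show these letters for the 6 genes that rose in the PTS + RS group. Each run is the 150 bases upstream of the outermost annotated start, from RefSeq on GRCm38.p6, 5′ to 3′ on the strand of the gene. Capitals mark the CHR, searched as TTTGAA with TTCGAA as a variant and TTTAAA as another, and the box named CCAAT. Each was searched on both strands, so that a printed TTCAAA is a CHR and a printed ATTGG is such a box.
Mki67, chr7:135716380-135716529, minus strand: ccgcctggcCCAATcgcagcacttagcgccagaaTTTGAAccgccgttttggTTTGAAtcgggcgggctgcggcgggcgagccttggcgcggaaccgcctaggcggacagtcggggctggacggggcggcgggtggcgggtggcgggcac
Top2a, chr11:99024190-99024339, minus strand: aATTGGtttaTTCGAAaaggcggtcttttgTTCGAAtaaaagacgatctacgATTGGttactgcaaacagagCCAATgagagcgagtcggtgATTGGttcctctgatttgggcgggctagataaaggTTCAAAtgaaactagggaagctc
Ccnb1, chr13:100786571-100786720, minus strand: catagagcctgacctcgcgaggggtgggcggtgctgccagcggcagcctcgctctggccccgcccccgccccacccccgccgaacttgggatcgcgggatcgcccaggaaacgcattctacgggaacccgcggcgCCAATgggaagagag
Cdk1, chr10:69352939-69353088, minus strand: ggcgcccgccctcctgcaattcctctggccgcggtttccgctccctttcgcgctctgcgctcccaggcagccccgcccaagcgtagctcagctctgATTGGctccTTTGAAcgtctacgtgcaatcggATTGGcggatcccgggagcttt
Ube2c, chr2:164769748-164769897, plus strand: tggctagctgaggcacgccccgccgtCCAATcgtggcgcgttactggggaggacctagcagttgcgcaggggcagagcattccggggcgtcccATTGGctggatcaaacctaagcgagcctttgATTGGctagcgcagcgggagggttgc
Rrm2, chr12:24708091-24708240, plus strand: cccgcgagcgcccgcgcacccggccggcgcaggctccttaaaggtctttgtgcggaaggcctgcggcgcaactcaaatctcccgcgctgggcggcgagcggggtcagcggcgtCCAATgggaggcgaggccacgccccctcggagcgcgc
A CHR match in each of Ccnb1, Cdk1 and Ube2c lay closer to the RefSeq start, inside the gene model of the deposited table. For Ccnb1 and Ube2c it was the only CHR within 250 bases, and for Cdk1 it was a further one. These 30-base windows show it in capitals.
Ccnb1 site, chr13:100786511-100786540, minus strand: agcggcccggggTTTAAAcctaagcccggc
Cdk1 site, chr10:69352913-69352942, minus strand: ctttaccgcggcgagTTTGAAactgctggc
Ube2c site, chr2:164769888-164769917, plus strand: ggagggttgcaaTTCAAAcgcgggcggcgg
A RefSeq promoter was found for 35 of the 42 genes. Within 250 bases upstream of the start, CCAAT was present in 27 of the 35 (77.1%) against 37.5% of the promoters of 27025 genes, and a CHR in 18 (51.4%) against 29.3%. The E2F letters, searched as TTCCCGC and in a further form as TTGGCGC on both strands, where neither form holds the other motifs, were found in 8 (22.9%) against 6.45%. All 6 genes shown held CCAAT, and 5 held both motifs. Rrm2 was the exception, with CCAAT and no CHR in its 250 bases. A match describes letters only. In the deposited table the gene models lie, on GRCm38, at chr7:135689784-135716361 for Mki67 (ENSMUSG00000031004), chr11:98992943-99024189 for Top2a (ENSMUSG00000020914), chr13:100778650-100786570 for Ccnb1 (ENSMUSG00000041431), chr10:69335146-69352938 for Cdk1 (ENSMUSG00000019942), chr2:164769898-164778822 for Ube2c (ENSMUSG00000001403) and chr12:24708241-24714146 for Rrm2 (ENSMUSG00000020649).

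The 8 libraries held between 15.9 M and 21.7 M counts on genes, and mitochondrial transcripts took 3.59% to 4.55%. Several libraries stood apart in marker genes of other cell types or regions. The 10 neuroblast markers summed to 1380 CPM (counts scaled to the normalised library size) in NaCl replicate 1 against 348 to 485 CPM in the other 7 libraries. Choroid plexus markers summed to 1660 and 52.1 CPM in the PTS + RS libraries, 1880 and 3910 CPM in RS, 1540 and 15.8 CPM with RGFP109, and 45.7 and 18.5 CPM with NaCl. Replicate 1 of RGFP109 and of NaCl is labelled cortex, and replicate 2 of each amygdala. The 8 cortical marker genes summed to 585 and 532 CPM in the cortex-labelled libraries and to 878 and 791 CPM in the amygdala-labelled ones, so this list was not higher where the label says cortex. The 8 amygdala marker genes summed to 435 and 242 CPM in the cortex-labelled libraries and to 336 and 384 CPM in the amygdala-labelled ones, and overlapped. The replicates are named below by number.

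Markers of dividing cells and several mitotic genes were higher in PTS + RS cortex than in RS cortex. Of the 42 genes 6 rose (14.3%) and 0 fell, where a call needed a difference of 1 or more in size on the log2 scale and an adjusted p below 0.05. The test was edgeR's quasi-likelihood test, with p-values adjusted by Benjamini-Hochberg over 17581 genes. Across all tested genes, 2.12% rose and 0.091% fell by the same rule. The genes that rose were Mki67, Top2a, Ccnb1, Cdk1, Ube2c and Rrm2. The difference was positive for 41 of the 42 genes, with a median log2 fold change of 0.69 against −0.0015 over all tested genes. Cdk1, Ube2c and Bub1, whose RS counts were very low, lay above this median also at the lower end of their counting intervals, so setting them there left it at 0.69. An unadjusted p under 0.05 was reached by 20 genes, all higher (47.6% against 10.3% of all tested genes), and 0 were lower (7.55% of all). Both PTS + RS libraries lay above both RS libraries for 31 genes (73.8% against 25.7%), and no gene showed the reverse (24.5% of all). The 31 include genes with a very small gap, such as Pcna and Ccnd1. All 42 passed the filter on low counts, but Ccnb1, Ccnb2, Cdk1, Ube2c, Aurkb and Bub1 did so only through the PTS + RS libraries. A gene under the filter in both RS libraries has to be higher in PTS + RS. This holds for all of these genes except Ccnb2, which had 15 counts in RS replicate 2. Of the 6 genes that rose, Ccnb1, Cdk1 and Ube2c passed in this way. All the genes so named are also counted among the 20 and the 31, so these counts are partly fixed by the filter. Without the filter 13 of the 42 genes rose (31% against 2.01% of all tested genes). Leaving out 1 library moved the median log2 difference to between 0.61 and 0.80, and fewer genes passed without either RS replicate. In bulk tissue, fewer cells of a type and less RNA per cell cannot be told apart.

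**Figure D1:**
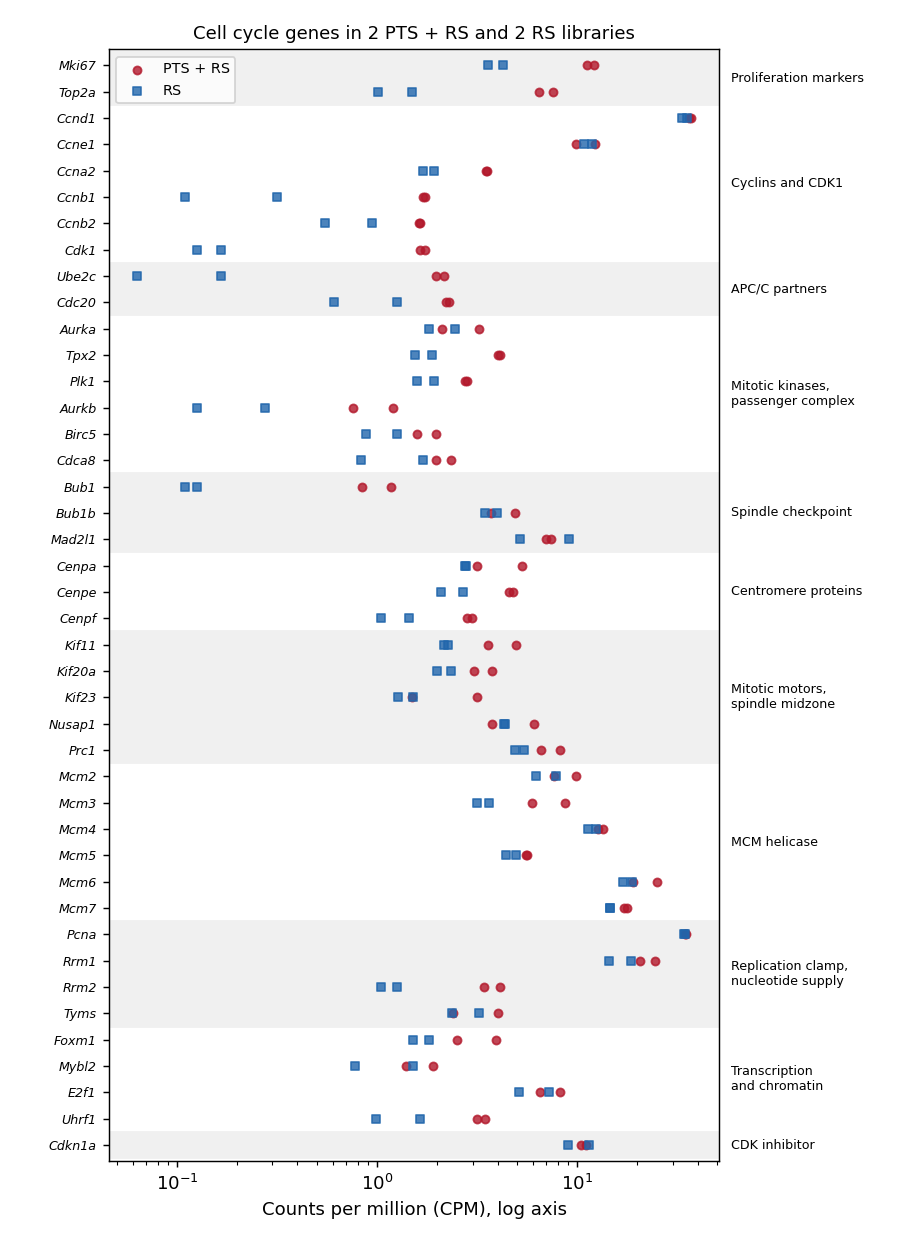
Level of each of the 42 genes in each library, in CPM on a log axis, with 2 PTS + RS libraries (circles) and 2 RS libraries (squares) and genes grouped by role. The groups separated most widely for Ube2c, Cdk1, Bub1 and Ccnb1, and lay very close together for Pcna, Ccnd1 and Ccne1. The first 4 had at most 5 counts in each RS library and passed the filter only through the PTS + RS libraries.

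Mki67 encodes Ki-67, the nuclear protein used to stain cycling cells. It was at 11.2 and 12.1 CPM in PTS + RS and at 4.25 and 3.6 CPM in RS. Both stroke libraries were well above both others, and the gene rose by a log2 fold change of 1.57 ± 0.19 (SE, n = 2 per group, adjusted p = 0.0067). Top2a, the topoisomerase that untangles chromosomes before they separate, was at 7.53 and 6.46 CPM against 1.49 and 1.01 CPM. Its rise was larger, at 2.47 ± 0.28 (adjusted p = 0.0052). Per length, on the deposited FPKM scale, Mki67 averaged 1.15 FPKM in PTS + RS and 0.388 FPKM in RS, and Top2a 0.771 and 0.138 FPKM.

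The cyclins and their kinase had unequal differences. Among those of G1, Ccnd1 (cyclin D1) was at 37.1 and 36.3 CPM in PTS + RS and at 35.5 and 33.4 CPM in RS, a log2 difference of 0.089 with a 95% interval from −0.14 to 0.32. Ccne1 (cyclin E1) differed by −0.031, with an interval from −0.44 to 0.38, and its groups overlapped. Neither passed the test. Ccna2, cyclin A2 of S phase and G2, was at 3.5 and 3.53 CPM against 1.93 and 1.7 CPM, a log2 difference of 0.95 ± 0.28 (SE) with an adjusted p of 0.13. The mitotic cyclins bind Cdk1 at entry into mitosis. Ccnb1 (cyclin B1) had 29 and 29 counts in PTS + RS and 2 and 5 in RS, or 1.69 and 1.74 CPM against 0.11 and 0.315 CPM. It rose by a log2 fold change of 3.0 ± 0.55 (adjusted p = 0.036), and did not pass without RS replicate 1 (adjusted p = 0.18). Ccnb2 (cyclin B2) was at 1.63 and 1.62 CPM against 0.552 and 0.946 CPM, and its difference of 1.12 had an adjusted p of 0.23. Cdk1, the kinase that cyclin B activates, had 28 and 29 counts in PTS + RS and 3 and 2 in RS. The ratio of pooled counts was 11.4, with an exact 95% interval from 4.63 to 36.6 that covers counting error only (adjusted p = 0.016). Its call was lost without RS replicate 1 (adjusted p = 0.069) and without RS replicate 2 (0.081).

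Ube2c, the ubiquitin-conjugating enzyme of the APC/C, had the largest fitted difference of the 42 genes. It had 34 and 36 counts in PTS + RS against 3 and 1 in RS. The pooled ratio was 17.6 with a counting interval from 6.56 to 66.3, and the gene rose with an adjusted p of 0.011. That interval overlapped those of Cdk1 (4.63 to 36.6) and Bub1 (3.04 to 33.1), so the order of these genes is not settled. A Ube2c pseudogene listed apart, AC151284.1, had 34 and 40 counts in PTS + RS against 53 and 42 in RS, and whether reads are shared between the gene and the pseudogene was not tested. On the opposite strand, Tnnc2 overlaps Ube2c and had 0 counts in all 4 libraries. Cdc20, the APC/C activator, was at 2.28 and 2.21 CPM against 0.607 and 1.26 CPM, and its difference of 1.28 ± 0.43 had an adjusted p of 0.18.

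None of the 6 mitotic kinase and chromosomal passenger genes passed the threshold, although all were higher in PTS + RS by the fit and for 5 of them the libraries did not overlap. Tpx2, which activates Aurora A on spindle microtubules, came closest. It was at 4.03 and 4.13 CPM against 1.55 and 1.89 CPM, a log2 difference of 1.25 ± 0.28 with an adjusted p of 0.062. Aurkb (Aurora B) had 13 and 20 counts against 5 and 2, a difference of 2.21 ± 0.63 with an adjusted p of 0.12. Differences for Plk1, Birc5 and Cdca8 lay between 0.66 and 0.78, and that for Aurka, whose libraries overlapped, was 0.32.

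The checkpoint genes did not move together. Bub1, a kinase of the spindle checkpoint, had 20 and 14 counts in PTS + RS and 2 and 2 in RS, a pooled ratio of 8.53 with a counting interval from 3.04 to 33.1. Its adjusted p was 0.053, just outside the threshold. Bub1b (BubR1) differed by 0.21 and overlapped. Mad2l1, which forms the checkpoint signal at unattached kinetochores, was at 7 and 7.36 CPM against 9.1 and 5.17 CPM, with the 2 stroke libraries inside the range of the others. Its log2 difference was 0.0023, with a 95% interval from −0.65 to 0.66.

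Among centromere genes, Cenpe, a kinesin that carries chromosomes to the spindle equator, was at 4.79 and 4.55 CPM against 2.7 and 2.08 CPM. Its difference of 0.96 ± 0.26 and that of Cenpf (1.22 ± 0.33) both had an adjusted p of 0.11. Cenpf, a kinetochore protein of late G2, was at 2.8 and 2.99 CPM against 1.05 and 1.45 CPM. Cenpa, the histone H3 variant of centromeres, was at 5.31 and 3.17 CPM against 2.76 and 2.78 CPM, a difference of 0.62 (adjusted p = 0.36). All 3 genes separated the groups without passing the test. The motor and midzone genes were closer. Kif11 (Eg5), which pushes spindle poles apart, was at 4.96 and 3.59 CPM against 2.26 and 2.15 CPM, with a difference of 0.95 and an adjusted p of 0.14. Prc1, the bundler of midzone microtubules, was at 8.17 and 6.58 CPM against 4.91 and 5.43 CPM, with a difference of 0.51 and an adjusted p of 0.26. Prc1 shares 21810 bases with Rccd1 on the opposite strand, and the strand setting of the counting is not given in the sources used here, so reads of the pair may be mixed. Differences for Kif20a, Kif23 and Nusap1 lay between 0.18 and 0.74, and the libraries of Kif23 and Nusap1 overlapped.

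The fitted differences of S phase genes were mostly smaller than those of the mitotic genes, and the difference between these roles was not tested. The mitotic genes include Ccnb1, Ccnb2, Cdk1, Ube2c, Aurkb and Bub1, which passed the filter only through the PTS + RS libraries. The contrast is therefore partly fixed by the filter. Spindle checkpoint genes had a median log2 difference of only 0.21. The 6 subunits of the MCM helicase had a median log2 difference of 0.27, and 5 of them differed by 0.14 to 0.31. Mcm3 stood apart, at 8.7 and 5.92 CPM in PTS + RS against 3.64 and 3.15 CPM in RS, a difference of 1.10 ± 0.26 with an adjusted p of 0.073. Mcm7, the subunit with the most counts over the 8 libraries, was at 17.8 and 17.1 CPM against 14.6 and 14.6 CPM, a difference of 0.25 (adjusted p = 0.36). Pcna, the sliding clamp of DNA polymerases, was the gene of the 42 with the highest level per length, at a mean of 14.3 FPKM in PTS + RS and 14.2 FPKM in RS. In CPM it was at 34.4 and 34.8 against 34.4 and 34.1, and its log2 difference of 0.016 had a 95% interval from −0.21 to 0.24. The subunits of ribonucleotide reductase, which makes deoxynucleotides, differed from each other. Rrm2, the subunit made in S phase, was at 4.09 and 3.41 CPM against 1.05 and 1.26 CPM and rose by 1.70 ± 0.31 on the log2 scale (adjusted p = 0.033), a call that was lost without RS replicate 1 (adjusted p = 0.14) and without RS replicate 2 (0.078). Rrm1 was at 24.6 and 20.7 CPM against 18.6 and 14.4 CPM, a difference of 0.46 (adjusted p = 0.21). Tyms, thymidylate synthase, overlapped between the groups at a difference of 0.20.

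Among regulators, Uhrf1, which keeps DNA methylation through replication, was at 3.15 and 3.47 CPM against 0.993 and 1.64 CPM, a log2 difference of 1.34 ± 0.34 with an adjusted p of 0.093. Foxm1, the transcription factor of mitotic genes, was at 3.91 and 2.51 CPM against 1.82 and 1.51 CPM, a difference of 0.94 with an adjusted p of 0.21. E2f1, a driver of S phase genes, was at 8.17 and 6.52 CPM against 5.13 and 7.19 CPM and overlapped, as did Mybl2, which with the MuvB complex activates mitotic promoters. Cdkn1a encodes p21, an inhibitor of cyclin-dependent kinases. It was at 11 and 10.5 CPM in PTS + RS and at 11.4 and 8.96 CPM in RS, and its difference of 0.079 had a 95% interval from −0.34 to 0.50.

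**Figure D2:**
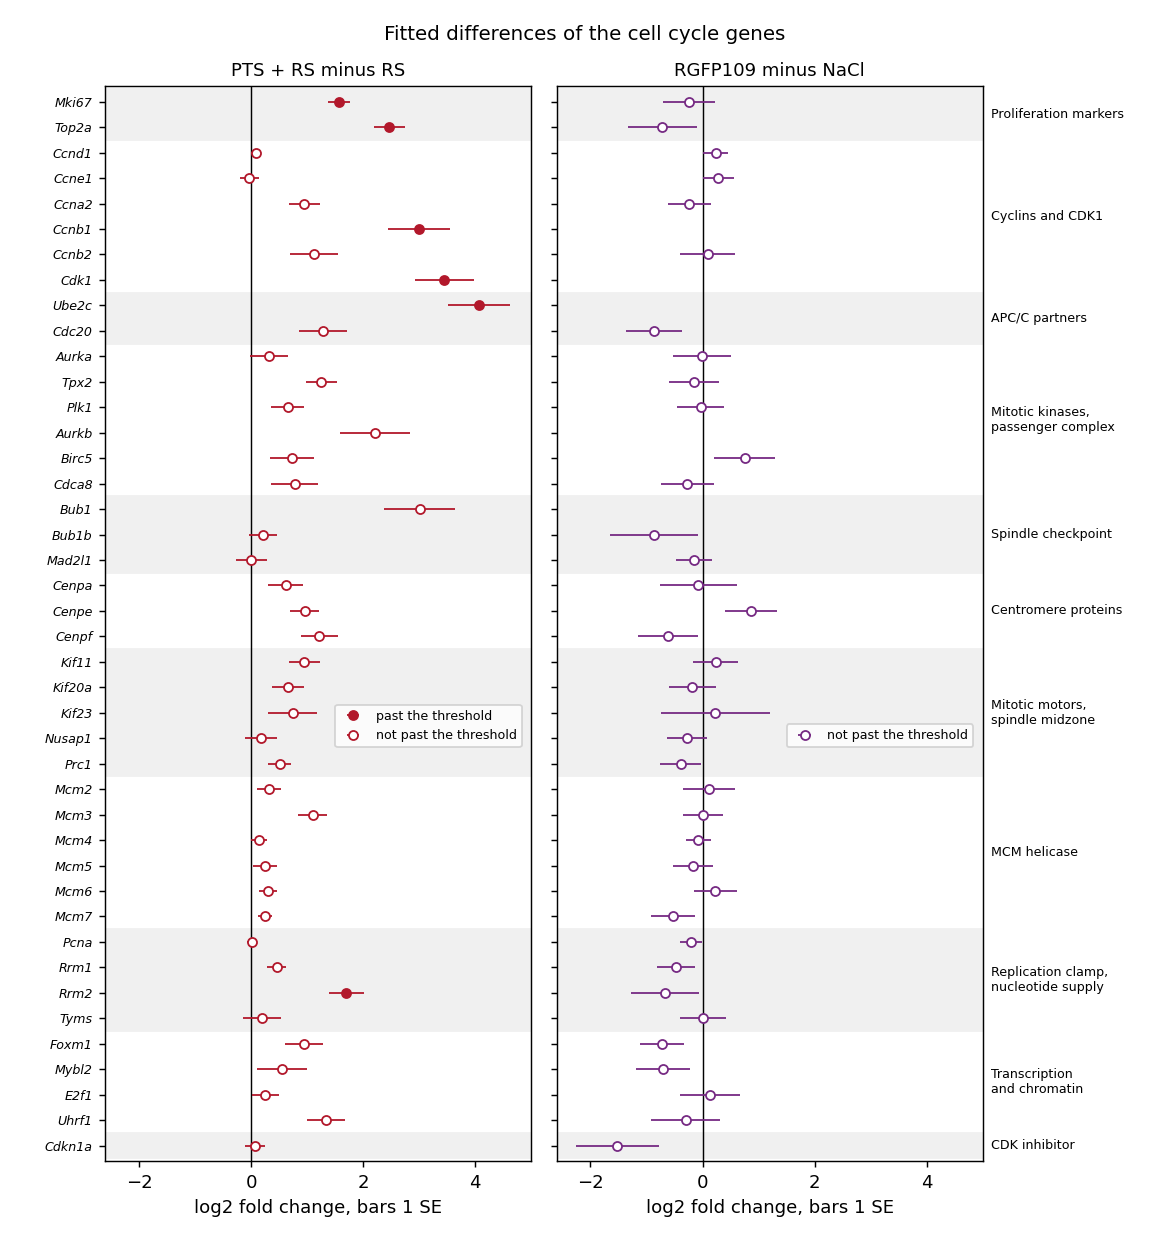
Fitted log2 fold change of each gene with 1 SE, PTS + RS minus RS on the left and RGFP109 minus NaCl on the right, with filled circles for genes past the threshold. The 6 filled genes are all on the left, and 5 genes that were not tested on the right have no point there. Points for Cdk1, Ube2c and Bub1 rest on at most 3 counts in each RS library.

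Further genes of the cycle were read from lists by function. Of 105 further cell cycle genes, 98 were tested and 2 rose (2.04%, against 2.12% of all tested genes), so their share was that of the background. Both were listed under kinetochore, spindle and cytokinesis genes, and both passed the filter only through the PTS + RS libraries. Of these, Hmmr was under the filter in both RS libraries and had to be higher in PTS + RS, while Ckap2 was under it only in RS replicate 2. Hmmr, a spindle assembly factor, had 42 and 26 counts against 8 and 3, a log2 fold change of 2.61 ± 0.53 (adjusted p = 0.049). Ckap2, which stabilises spindle microtubules, had 53 and 48 counts against 15 and 8, a change of 2.14 ± 0.38 (adjusted p = 0.03). At an unadjusted p under 0.05, 25 of the 98 genes were higher and 3 lower, where 10.3% of all tested genes were higher and 7.55% lower. On the kinetochore list 17 of 33 tested genes were higher (51.5%) and 0 lower, with a median of 0.58. Further genes of this list passed the filter only through the PTS + RS libraries and had to be higher there. Examples are Kif2c, with 23 and 17 counts against 4 and 2, and Ttk, with 16 and 12 against 3 and 3. The share and the median without such genes were not computed. The list of origin licensing and replication had 1 of 23 higher (4.35%), 1 lower and a median of 0.24, that of the D and E cyclins and their kinases 1 of 9 higher and 0.18, and that of pocket proteins, DREAM and E2F factors 4 of 14 higher and 0.17. For p53 and its targets the median was −0.0052, with 1 of 14 higher and 1 lower, and for the other CDK inhibitors it was −0.031, with 1 of 5 higher and 1 lower. No gene of the 6 lists fell past the threshold.

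Markers of several cell types moved with these genes. All 10 microglial markers rose, and their summed level was 1360 and 1150 CPM in PTS + RS against 318 and 288 CPM in RS. Of 8 monocyte and macrophage markers, 5 were tested and 2 rose, with sums of 43.9 and 26.2 CPM against 11.2 and 9.65 CPM. The macrophage gene Cd5l was at 0 counts in both RS libraries, and Ms4a7 had 94 and 44 counts against 2 and 7. Both passed the filter only through the PTS + RS libraries, so they had to be higher there. Of 8 astrocyte markers 2 rose, Gfap and Aqp4, with sums of 7810 and 6630 CPM against 4460 and 4500 CPM. At an adjusted p under 0.05 by edgeR and any size of difference, 5 of the 8 were higher. Of 10 markers of neural stem and transit amplifying cells, 9 were tested and 1 rose, Thbs4, with sums of 157 and 135 CPM against 88.2 and 94.2 CPM. By the adjusted p alone 2 of the 9 were higher. The 10 oligodendrocyte precursor markers summed to 840 and 819 CPM against 668 and 689 CPM, and 9 of them were higher by the fit. By edgeR 0 rose past the threshold, but 2 were higher at an adjusted p under 0.05 with a smaller difference. At an unadjusted p under 0.05, 3 were higher and 1 lower, Olig2, at 33.9 and 30.1 CPM against 36.1 and 43.1 CPM. Neuroblast markers summed to 361 and 348 CPM against 381 and 366 CPM. None of the 9 lymphocyte markers passed the filter, with sums between 0.883 and 1.87 CPM in the 4 libraries. The part of each cell type in the proliferation genes was not tested.

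**Figure D3:**
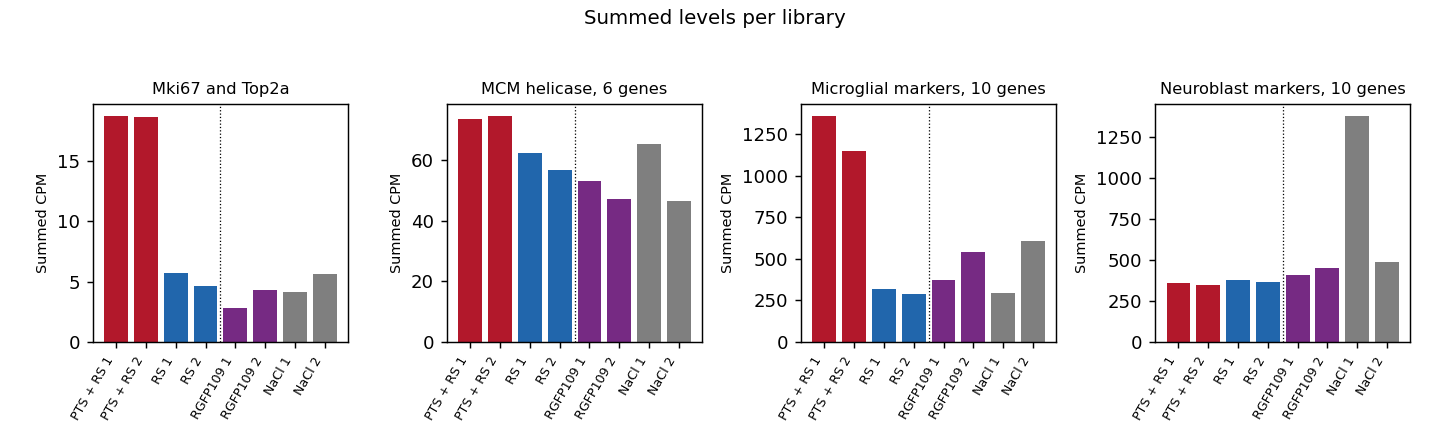
Summed CPM in each of the 8 libraries for Mki67 and Top2a, for the 6 MCM genes, for 10 microglial markers and for 10 neuroblast markers. A dotted line parts the separately deposited tables. Mki67 and Top2a and the microglial markers were highest in the 2 PTS + RS libraries, and the neuroblast markers in NaCl replicate 1.

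With RGFP109 none of these genes passed the threshold. Of the 42 genes 37 were tested, 12 were higher and 25 lower with RGFP109 than with NaCl, and their median log2 difference was −0.18 against −0.016 over all 17565 tested genes. By edgeR's quasi-likelihood test 0 genes of any kind passed (0% in either direction). At an unadjusted p under 0.05 there were 0 of the 37, against 0.501% of all tested genes higher and 0.672% lower. DESeq2, limma-voom and the fit with the replicate number as a block also gave 0 past the threshold, and each had 1 of the 37 lower at an unadjusted p under 0.05. In these fits 273, 70 and 164 of all 17565 tested genes were lower at that level. Both RGFP109 libraries were below both NaCl libraries for 7 of the 37 (18.9% against 13.8%), namely Top2a, Cdc20, Cenpf, Prc1, Foxm1, Mybl2 and Cdkn1a. They were above for Birc5, Cenpe and Kif11 (8.11% against 12.8%).

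The replicates within each group carry different tissue labels, and their levels differed widely. For Mki67 the levels were 2.22 and 2.43 CPM with RGFP109 and 1.93 and 3.59 CPM with NaCl, so the groups overlapped. Its log2 difference was −0.25, with a 95% interval from −1.45 to 0.95. Top2a was at 0.634 and 1.87 CPM against 2.16 and 2.01 CPM, a difference of −0.72 with an interval from −2.33 to 0.90. The 5 genes that were not tested had few counts in all 4 libraries. Cdk1 had 1 and 11 counts with RGFP109 and 7 and 10 with NaCl. Ube2c had 5 and 5 against 9 and 11, and Aurkb 4 and 8 against 7 and 6. For Ccnb1 there were 1 and 2 counts against 6 and 4, a pooled ratio of 0.29 with a counting interval from 0.0514 to 1.13. Bub1 had 1 and 0 counts against 3 and 4, a ratio of 0.138 with an interval from 0.00307 to 1.08. Both intervals include 1. In CPM, both RGFP109 libraries lay below both NaCl libraries for Ccnb1, Ube2c and Bub1, and these differences were not tested.

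G1 and S phase genes with more counts gave narrower intervals. Pcna was at 31 and 38.7 CPM with RGFP109 and 37.8 and 42.7 CPM with NaCl, a log2 difference of −0.21 with a 95% interval from −0.73 to 0.31. Ccnd1 was at 44.5 and 32.6 CPM against 32.7 and 32.8 CPM, a difference of 0.23 with an interval from −0.34 to 0.80. For both genes the groups overlapped.

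Cdkn1a had the largest difference of the tested members. It was at 6.47 and 32.3 CPM with RGFP109 and at 60.8 and 51 CPM with NaCl, so that both RGFP109 libraries were lower but differed from each other more than the NaCl libraries did. The log2 difference was −1.52 ± 0.74 (SE, n = 2 per group), with a 95% interval from −3.44 to 0.40, an unadjusted p of 0.096 and an adjusted p of 1 by edgeR. Within replicate number 1 the level was 9.39 times lower with RGFP109, with a counting interval from 7.66 to 11.6. Within number 2 it was 1.58 times lower, from 1.43 to 1.74. In the separately deposited PTS + RS and RS table, Cdkn1a lay between 8.96 and 11.4 CPM in all 4 libraries, close to RGFP109 replicate 1 and below the other 3 libraries of this experiment. Levels set across the tables were normalised separately and were not tested against each other. Of 14 tested p53 pathway genes 6 were higher and 8 lower with RGFP109, with a median log2 difference of −0.089.

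The replicate numbers gave different pictures. Within number 1, 23 of the 37 genes were lower with RGFP109 (51.8% of all tested genes were lower), with a median log2 ratio of −0.28, and counting intervals lay below 1 for 12 genes (32.4% against 28.7% of all tested genes) and above 1 for 6 (16.2% against 27.4%). Within number 2, 21 were lower (50.4% of all), with a median of −0.049, and the intervals lay below 1 for 6 genes (16.2% against 18% of all) and above for 1 (2.7% against 17.5%). These ratios compare single libraries, and over all genes many intervals left out 1 in either direction. NaCl replicate 1, which carried the neuroblast markers, also had the highest level of the 4 libraries for several members. Bub1b was at 10.9 CPM there and at 2.17 to 4.11 CPM in the others of the experiment. Mcm7 was at 29.4 CPM against 14 to 16 CPM, Rrm1 at 30.8 CPM against 15.9 to 18.6 CPM, and Rrm2 at 2.33 CPM against 0.698 to 1.73 CPM. Mki67 did not follow, with its lowest level of the 4 libraries there. The part of the neuroblast markers in these values was not tested. Over the same 37 genes the median difference was −0.069 without NaCl replicate 1 and −0.37 without RGFP109 replicate 2, with −0.13 without RGFP109 replicate 1 and −0.18 without NaCl replicate 2 between them.

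**Figure D4:**
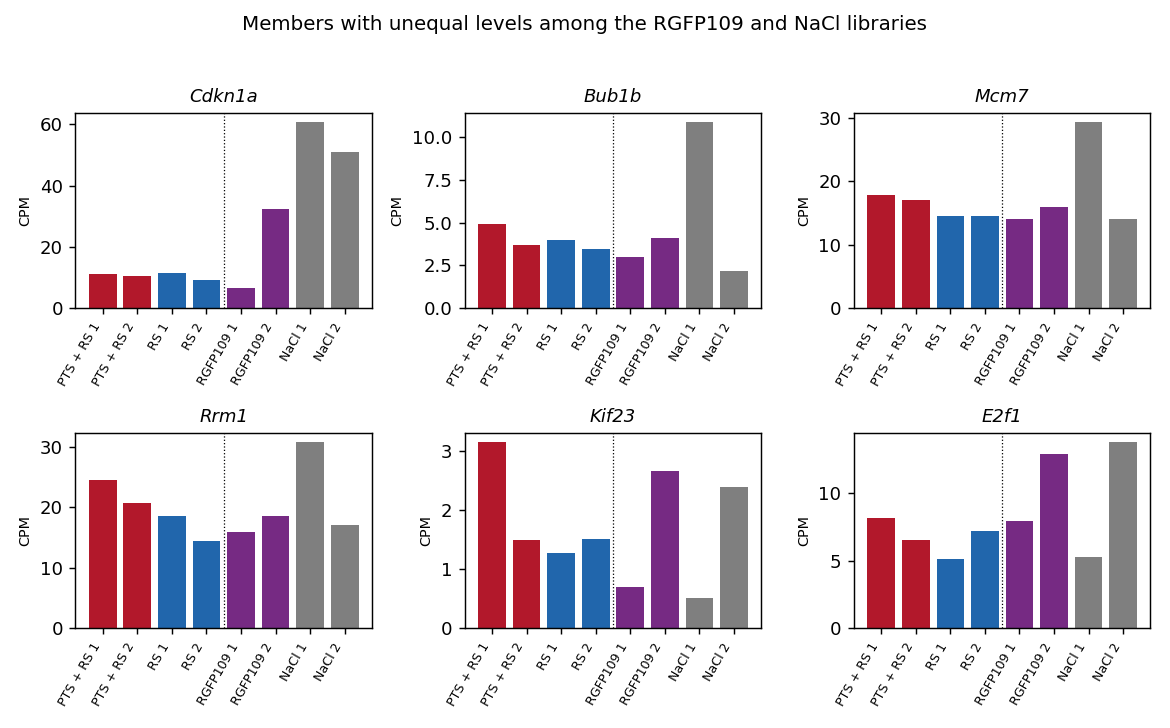
CPM of Cdkn1a, Bub1b, Mcm7, Rrm1, Kif23 and E2f1 in each of the 8 libraries, with a dotted line between the separately deposited tables. Bub1b, Mcm7 and Rrm1 were highest in NaCl replicate 1, Cdkn1a was high in 3 of the 4 libraries on the right, and E2f1 was higher in replicate 2 than in replicate 1 of both groups there, as was Kif23.

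The 2 replicate numbers, which differ in their tissue labels, were also compared with each other, with 2 libraries a side. By edgeR 0 of 37 genes passed the threshold, as did 0% of all tested genes in either direction. At an unadjusted p under 0.05 there were 3 genes higher in the amygdala-labelled libraries (8.11% against 6.81% of all) and 1 lower (4.4% of all). DESeq2 likewise passed 0 of the 37, but it passed 267 genes higher and 82 lower in all. Kif23, a kinesin of the cytokinetic midzone, was at 2.66 and 2.39 CPM in the amygdala-labelled libraries and at 0.698 and 0.512 CPM in the cortex-labelled ones. Its log2 difference was 2.06 ± 0.39 (adjusted p = 0.28), and it passed the filter only through the amygdala-labelled libraries. Cenpa was at 5 and 5.33 CPM against 1.97 and 2.05 CPM, a difference of 1.36 ± 0.27 (adjusted p = 0.29), and E2f1 at 12.9 and 13.8 CPM against 7.93 and 5.29 CPM, a difference of 1.01 ± 0.27 (adjusted p = 0.33). Mcm2 went the other way, at 3.22 and 3.48 CPM against 6.15 and 5.18 CPM, with a difference of −0.76 (adjusted p = 0.41). For all 4 genes the libraries did not overlap, as for 9 genes higher (24.3% against 21.6% of all) and 5 lower (13.5% against 22.4%). Without RGFP109 replicate 1, 3 of 39 members then tested passed higher (7.69% against 7.45% of all tested genes) and 1 lower (2.56% against 5.95%). Without NaCl replicate 1, 3 of 39 passed higher (7.69% against 4% of all) and 0 lower (2.13% of all). The numbers of calls over all genes rose together with those of the members. Markers of several cell types differed between the numbers too, with 29 of 121 tested markers higher in the amygdala-labelled libraries at an unadjusted p under 0.05 and 13 lower. All 5 erythrocyte markers were among the higher ones, with sums of 127 and 438 CPM against 1.65 and 12.9 CPM in the cortex-labelled libraries. Myelin markers (6 of 8 higher) summed to 4400 and 4900 CPM against 3090 and 3100 CPM, and microglial markers (6 of 10 higher) to 542 and 607 CPM against 375 and 295 CPM. Of 7 tested monocyte and macrophage markers 3 were higher, with sums of 36.8 and 64.7 CPM against 20.9 and 19.7 CPM. The part of these cells in the values of the proliferation genes was not tested.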

How the data were processed

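RNA-seq was performed by the authors on 8 libraries. They aligned reads to GRCm38 with STAR 2.4.0 and deposited raw read counts per gene from HTSeq 0.6.1, with FPKM values, which equal each count divided by gene length and one factor per library. The labels name a directional library kit, the study's methods a different one, and the strand setting of counting is not given in the sources used here. The authors' normalized signal (8 per-library columns), fold changes, p-values and adjusted p-values were deposited too and not used.

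Counts were analysed in R 4.3.3 with edgeR 4.0.16 (filterByExpr with a minimum count of 10, TMM, quasi-likelihood test, Benjamini-Hochberg adjustment over all tested genes), each table alone. A gene passed with an adjusted p below 0.05 and a difference of 1 or more in size on the log2 scale. The study's methods name limma. Because the files hold counts, limma-voom (3.58.1) and DESeq2 (1.42.0) were alternatives, with other size factors, no filter, the replicate number as a block and each library left out. The steps were tested on simulated data.

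The 42 genes, the pathway and marker lists and the tests were chosen with earlier results of these data known. Values in every library were given for members with an adjusted p under 0.05 or, in the PTS + RS or RGFP109 comparison, an unadjusted p under 0.05, for the member of each role with the most counts, and for Mki67, Top2a, Cdk1, Pcna, Ccnd1 and Cdkn1a. Other genes were named when past an adjusted p of 0.05 on a pathway list. Single-library and pooled ratios carry exact binomial intervals at 95% that cover counting error only. Same-numbered libraries deviated together weakly (correlation 0.041 for PTS + RS and RS, 0.277 for RGFP109 and NaCl). Counts of replicates differed beyond sampling noise (chi-square per gene from 4.6 to 75.5). Promoters were read from RefSeq with Python 3 and pandas.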

Additional observations from a re-analysis of the deposited data

Results flagged for a closer look

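Bub1b, which encodes the checkpoint kinase BubR1, moved in opposite directions at the 2 replicate numbers of the RGFP109 experiment. The ratio of RGFP109 to NaCl was 0.274 within number 1, with an exact counting interval from 0.195 to 0.379, and 1.89 within number 2, from 1.29 to 2.82. It was singled out because both intervals leave out 1 on opposite sides. Each ratio compares 1 library with 1 library, and the difference between the numbers was not tested. The 4 libraries held 47 and 88 counts with RGFP109 and 191 and 40 with NaCl, and the highest was the library in which the neuroblast markers summed to 1380 CPM.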

How the results depend on the processing

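In the PTS + RS comparison 6 genes rose (14.3% against 2.12% of all tested genes). The count was also 6 with DESeq2 (2.31% of all tested genes), limma-voom (1.79%) and RLE size factors (2.1%). It was 13 without the filter on low counts (31% against 2.01% of all tested genes). Leaving out 1 library gave 3 to 11, with 8 and 11 without PTS + RS replicate 1 or 2 and 3 and 4 without RS replicate 1 or 2. Among the fits without 1 library, the share of all tested genes that rose was also highest without PTS + RS replicate 2. That share was lower without either RS replicate than with all libraries. Mki67, Top2a and Ube2c passed in all of the fits named so far. Without RS replicate 1, Ccnb1 (adjusted p = 0.18), Cdk1 (0.069) and Rrm2 (0.14) did not pass, and without RS replicate 2 neither did Cdk1 (0.081) nor Rrm2 (0.078). With the replicate number as a block 7 genes rose (16.7% against 2.52% of all tested genes). Mcm3 was added at an adjusted p of 0.036 by edgeR, and the block changed no other call among the members. These libraries share only a number. In the RGFP109 comparison no member passed in any alternative, the replicate block included. Genes outside the members did pass, in both directions, when NaCl replicate 2 was left out. Leaving out RGFP109 replicate 1 changed the log2 difference of Cdkn1a to -0.79, and leaving out replicate 2 to -3.11. Between the replicate numbers, leaving out 1 library gave 0 to 3 genes higher and 0 to 1 lower. The 3 higher were Cenpa, Kif23 and E2f1 without RGFP109 replicate 1, when Bub1b was lower, and Cenpa, Kif23 and Cdkn1a without NaCl replicate 1. Over all tested genes these fits passed 1396 higher and 1116 lower of 18744, and 744 higher and 397 lower of 18613, against 0 with all libraries. A fit that leaves 1 library in a group assumes that it varies like the other group. Of 1044 member differences under an alternative, 71 had the opposite sign, 0 of them past the threshold in either fit. For Cdkn1a the log2 difference between the replicate numbers was 0.31 with all libraries. It was -0.54 without RGFP109 replicate 1 and 2.7 without NaCl replicate 1. The causes of these changes were not tested.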

Other observations

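The NaCl and RGFP109 libraries are labelled as PTS + RS mice, as are the PTS + RS libraries, but the levels of the proliferation genes in the separately deposited tables were not alike. The cortex-labelled NaCl replicate 1 held Mki67 at 1.93 CPM and Top2a at 2.16 CPM. The PTS + RS cortex libraries held Mki67 at 11.2 and 12.1 CPM and Top2a at 7.53 and 6.46 CPM, and the RS libraries 4.25 and 3.6 CPM and 1.49 and 1.01 CPM. Microglial markers summed to 295 CPM in NaCl replicate 1 and 375 CPM in RGFP109 replicate 1, against 1360 and 1150 CPM in PTS + RS and 318 and 288 CPM in RS. The tables were normalised separately, and no test was made across them.

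Gene models of other members overlap those of neighbours. Kif20a shares 2315 bases with Cdc23 on the opposite strand, which had 933 and 914 counts in PTS + RS and 878 and 781 in RS, many more than the 52 and 63 and the 36 and 37 counts of Kif20a. Foxm1 shares 691 bases with Tex52 on the same strand, where Tex52 had 39 and 26 counts in PTS + RS and 33 and 30 in RS. It also shares 644 bases with Gm44596, which had 0 counts in all 4 libraries. The others lie on the opposite strand. Ccna2 shares 863 bases with Exosc9, Ccnd1 shares 1771 bases with Oraov1, Cdca8 shares 2264 bases with 9930104L06Rik, and Mcm7 shares 421 bases with Ap4m1 and 64 with Cops6. Nusap1 shares 172 bases with Oip5, and Cdc20 shares 53 with Elovl1. Whether reads of these pairs are mixed was not tested. Exosc9 had 371 and 341 counts in PTS + RS and 340 and 335 counts in RS. A pseudogene of Ccnb2, Ccnb2-ps, had 62 and 87 counts in PTS + RS and 67 and 67 counts in RS, more than the 28 and 27 and the 10 and 15 counts of Ccnb2 itself.

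The 35 members with a RefSeq promoter were split by their unadjusted p in the PTS + RS comparison of these same data. CCAAT was found in 16 of 16 with a p under 0.05 and in 11 of the other 19 (57.9%), against 37.5% of all promoters. A CHR was found in 10 of the 16 (62.5%) and in 8 of the 19 (42.1%), against 29.3% of all promoters. Among the 16 are Ccnb1, Ccnb2, Cdk1, Ube2c and Bub1, which passed the filter only through the PTS + RS libraries, so the split is partly fixed by it. These are counts of letters, and the difference between the groups of promoters was not tested.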
